A study of Mus musculus with 13 samples.

Results

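The peroxiredoxins are a family of thiol peroxidases, and the 6 genes of the mouse family, Prdx1 to Prdx6, were taken by gene symbol from a table of 56953 genes. All 6 passed the filter on low counts, which left 18055 genes for testing. The libraries were made from whole aorta of ApoE-/- mice, which lack apolipoprotein E and develop atherosclerosis, and the study asked what auranofin does to its progression. Poly-A RNA was sequenced without strand information, so reads of overlapping genes on opposite strands cannot be told apart.

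All mice were 6 weeks old at the start and all ate a Western diet for 16 weeks, so no group was free of the genotype or the diet. The auranofin group (3 libraries) received 3 mg/kg/day of auranofin, a gold compound that inhibits thioredoxin reductase. The atorvastatin group (3 libraries) received 10 mg/kg/day of atorvastatin, a statin that lowers cholesterol synthesis. The combination group (2 libraries) received both drugs at these doses, and the Western diet group (5 libraries) received the diet alone. Drugs were mixed into the diet, and the sex of the mice is not given in the sources used here. Nothing in the labels says whether each library came from a separate mouse, so p-values here describe the spread among these libraries, which may be technical.

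Peroxiredoxins reduce hydrogen peroxide and organic peroxides through a reactive cysteine, and most of them are then reduced again by thioredoxin, which is itself kept reduced by thioredoxin reductase and NADPH. When peroxide is abundant the cysteine can be oxidised further, and sulfiredoxin reverses this. Prdx1 and Prdx2 work in the cytosol, Prdx3 in mitochondria and Prdx4 in the endoplasmic reticulum, while Prdx5 is found in several compartments and Prdx6 uses a single catalytic cysteine with glutathione as its partner.

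Upstream sequences are shown for Prdx1, whose promoter held a match to the antioxidant response element, and for Prdx3, the member whose level varied apart from the rest. Both are the 250 bases before the transcription start in RefSeq for GRCm38.p6, in the direction of the gene, with matches to the motifs named below in capitals. The Prdx1 stretch lies at chr4:116685349-116685598 on the plus strand and the Prdx3 stretch at chr19:60874539-60874788 on the minus strand.
Prdx1: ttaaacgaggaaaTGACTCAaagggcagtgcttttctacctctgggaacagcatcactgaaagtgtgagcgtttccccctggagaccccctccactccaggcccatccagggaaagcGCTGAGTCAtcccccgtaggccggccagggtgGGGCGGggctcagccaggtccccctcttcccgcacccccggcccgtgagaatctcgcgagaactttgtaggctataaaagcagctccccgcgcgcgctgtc
Prdx3: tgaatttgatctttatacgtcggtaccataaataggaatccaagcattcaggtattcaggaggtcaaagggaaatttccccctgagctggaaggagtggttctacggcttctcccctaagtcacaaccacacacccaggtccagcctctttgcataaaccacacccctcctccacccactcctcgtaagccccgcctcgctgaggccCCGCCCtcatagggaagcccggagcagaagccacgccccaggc

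Promoters of 5 of the 6 members were matched, all but Prdx6, and motifs were searched on both strands from 250 bases before to 50 bases after the start. The antioxidant response element TGACNNNGC, which NRF2 binds, was matched in Prdx1, beginning 133 bases before the start and read on the opposite strand, and in 12.4% of 32851 promoters. The AP-1 site TGACTCA was matched in Prdx1 at 237 and 131 bases before the start, the second inside the antioxidant response element, and in 5.2% of promoters. Prdx5 held the ETS site CCGGAAG, 48 bases before the start and again 18 bases after it (8.86% of promoters), and Prdx4 held the E-box CACGTG, 52 bases before the start (7.15% of promoters). None of these 4 motifs was matched in the windows of Prdx2 and Prdx3. The GC box GGGCGG was matched in all 5 windows and in 35.7% of promoters, beginning 101 bases before the start in Prdx1 and 43 bases before it in Prdx3, there on the opposite strand.

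The libraries held 19703683 to 26079566 counts, and mitochondrial genes took 9.36% to 38.8% of them. Myh11 of smooth muscle (745 to 5550 CPM), Pecam1 of endothelium (293 to 1430 CPM) and Dcn of fibroblasts (1220 to 1990 CPM) were found in every library, where CPM is the count scaled to a common library size with TMM factors (trimmed mean of M-values). Auranofin 2, Western diet 2 and Western diet 5 stood apart in scaling, with TMM factors of 0.629, 0.639 and 0.801 against 0.999 to 1.23 elsewhere. The same libraries held more short and fewer long transcripts than the rest. The median log2 deviation of genes with transcripts under 1000 bases, minus that of genes with transcripts of at least 4000 bases, was 0.569 in auranofin 2, 1.76 in Western diet 2 and 0.941 in Western diet 5. It was lowest in atorvastatin 1 (-0.97) and atorvastatin 2 (-0.672). The fold changes between groups are therefore given with all libraries and without Western diet 2 and 5, a choice made after the values were seen. That second fit kept auranofin 2, and no fit left out all of the libraries that stood apart.

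Prdx1 was the most abundant member. On the scale of CPM per kilobase of transcript its median over 13 libraries was 164, and it ranked first in 13 of 13. Prdx2, Prdx4 and Prdx5 followed at medians of 54.6, 54.3 and 53.5 CPM per kilobase, closer to each other than their spread between libraries, and Prdx3 and Prdx6 were lower at 40.2 and 35.3. With the length of all exons joined in place of 1 transcript Prdx1 still ranked first in 13 of 13 libraries, while Prdx3 came second in 9, so the order below Prdx1 depends on the length used. Prdx1 made up 39.0% ± 1.04 of the summed CPM per kilobase of the family in auranofin libraries (SD, n = 3), 39.6% ± 2.596 in atorvastatin libraries (n = 3), 39.0% ± 1.42 in combination libraries (n = 2) and 38.6% ± 6.74 in Western diet libraries (n = 5).

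Cytosolic Prdx1 had 324, 532 and 365 CPM in auranofin libraries 1 to 3 and 249, 322 and 314.5 CPM in atorvastatin libraries 1 to 3. It had 393 and 375 CPM in combination libraries 1 and 2, and 420, 1078, 288, 439.5 and 394 CPM in Western diet libraries 1 to 5. Atorvastatin 1 held the lowest value and Western diet 2 the highest, and every treated group overlapped the Western diet group. Prdx2, the other cytosolic member, had 82.3, 126 and 86.6 CPM with auranofin and 59.4, 67.6 and 88.0 CPM with atorvastatin. Its values were 113 and 87.7 CPM with the combination and 105, 249, 88.4, 87.0 and 176 CPM with Western diet alone. Here Western diet 2 and Western diet 5 were both high, and the 3 other Western diet libraries lay inside the range of the auranofin and combination libraries. Red blood cells are rich in Prdx2 protein. The summed CPM of 7 tested erythroid markers of 9 listed ran from 2497 to 9548 with auranofin, from 1393 to 5038 with atorvastatin, from 2582 to 5088 with the combination and from 1089 to 11340 with Western diet alone, and its part in the Prdx2 values was not tested.

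Mitochondrial Prdx3 had 69.9, 109.5 and 59.3 CPM with auranofin, 42.9, 59.4 and 57.5 CPM with atorvastatin, 50.9 and 85.4 CPM with the combination, and 43.8, 100.1, 66.6, 61.3 and 52.9 CPM with Western diet alone. It was the member with the narrowest span, with 2.55-fold between the highest and the lowest library against 3.54-fold to 4.79-fold for the other 5. Its highest library was auranofin 2, not Western diet 2, and Western diet 5, high for Prdx2, was the fourth lowest. That order depends on the TMM factors. Scaled only to the library total, Prdx3 was highest in combination 2 (91.7) and lowest in Western diet 5 (42.4), with 68.8 in auranofin 2.

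Prdx4, which couples peroxide removal to protein folding in the endoplasmic reticulum, had 44.4, 62.7 and 54.4 CPM with auranofin, 39.2, 37.1 and 53.8 CPM with atorvastatin, 66.0 and 35.4 CPM with the combination, and 57.4, 169.7, 53.1, 50.4 and 109.7 CPM with Western diet alone. Combination 2 was its lowest library, and all 5 Western diet libraries lay above atorvastatin 1 and 2. Prdx5, which removes peroxides in mitochondria, peroxisomes and cytosol, had 60.5, 125 and 67.5 CPM with auranofin, 44.6, 57.9 and 64.8 CPM with atorvastatin, 80.8 and 74.4 CPM with the combination, and 79.8, 208, 66.9, 66.6 and 130 CPM with Western diet alone. All 3 atorvastatin libraries lay below all 5 Western diet libraries, by 64.8 CPM in the highest atorvastatin library against 66.6 CPM in the lowest Western diet library.

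Prdx6, which also acts on phospholipid peroxides and has phospholipase activity, had 81.9, 144 and 84.2 CPM with auranofin, 56.4, 64.6 and 82.5 CPM with atorvastatin, 107.7 and 93.0 CPM with the combination, and 81.4, 199.7, 86.3, 79.1 and 145 CPM with Western diet alone. Auranofin 2, Western diet 2 and Western diet 5 were its 3 highest libraries. The place of auranofin 2 depends on its TMM factor. Scaled only to the library total, Prdx6 was 90.45 in auranofin 2, below 127 in combination 1 and 99.88 in combination 2. Western diet 2 and 5 were then at 127.5 and 116. Reads could be shared with a close copy, so values of Prdx6 and Prdx2 are uncertain to that extent. Prdx6b had at most 13 counts and the pseudogene Prdx2-ps1 had 2 to 12 counts in a library, while Prdx1-ps, Prdx2-ps2 and Prdx6-ps2 had 0 counts in all 13 libraries. The members themselves held 750 to 17943 counts per library.

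**Figure D1:**
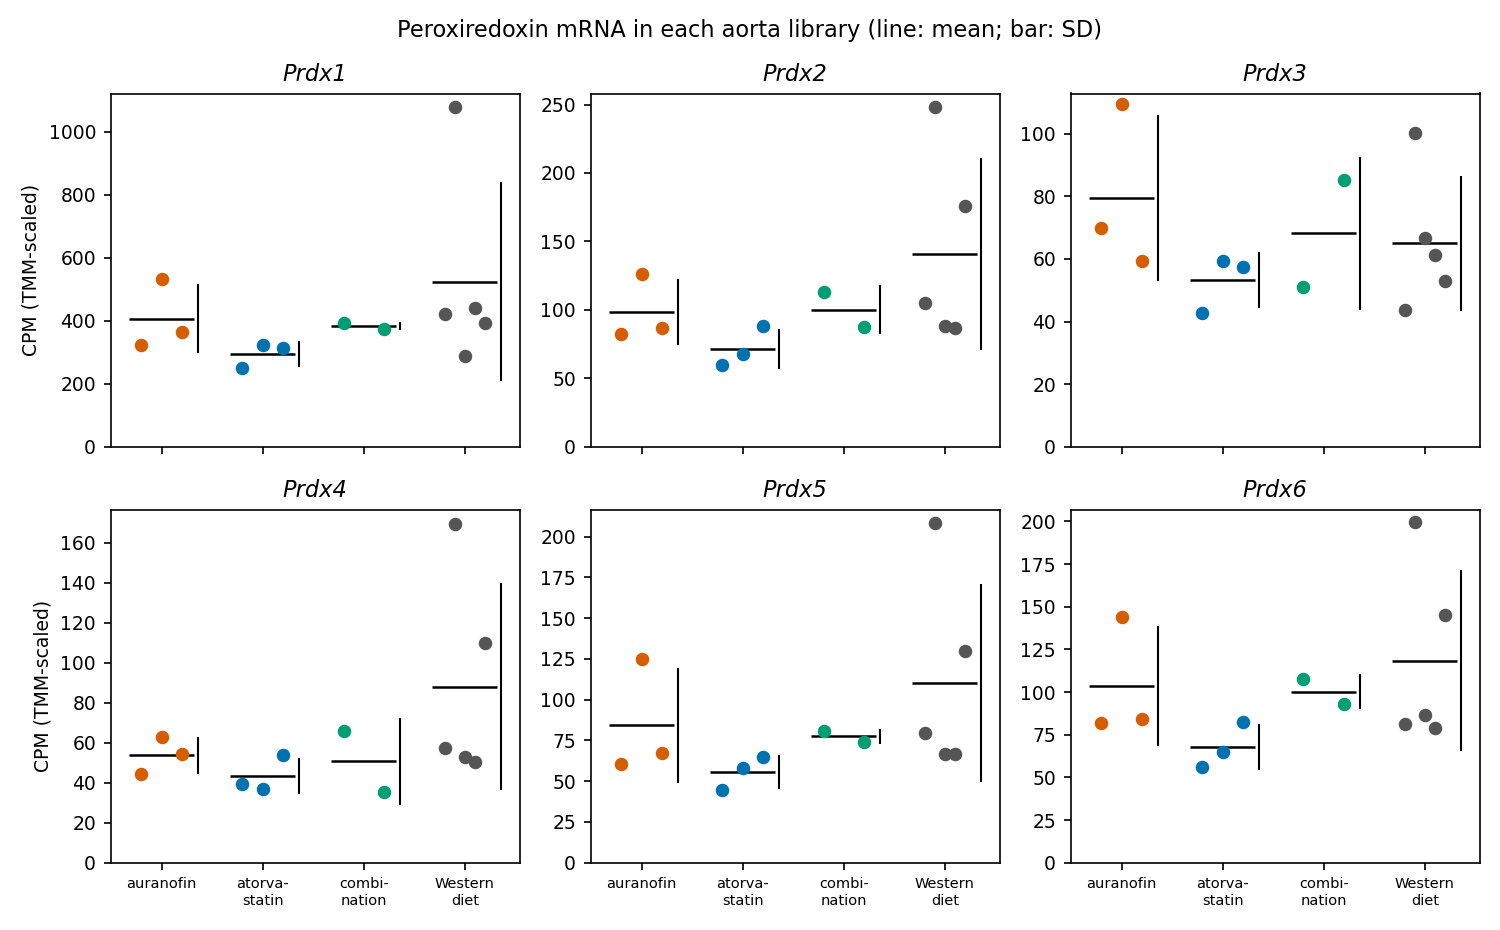
CPM (TMM-scaled, linear axes from 0) of the 6 peroxiredoxins in the 13 aorta libraries, each point a library, with the group mean as a line and the SD as a bar (n = 3, 3, 2 and 5 from left to right). Auranofin 2 is the highest library for Prdx3 at 109.5 CPM, and Western diet 2 is the highest for the other 5 members, at 1078 CPM for Prdx1.

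Auranofin against Western diet asks what the inhibitor of thioredoxin reductase changed on top of the diet. Of the 6 members, 5 were fitted lower and Prdx3 higher, against 53.6% of all genes fitted lower. No member was called at an adjusted p under 0.05 (edgeR quasi-likelihood test, Benjamini-Hochberg over all genes), and the background was 0% of genes called. Group means were 407 ± 110 CPM with auranofin and 524 ± 315 CPM with Western diet alone for Prdx1, and 79.5 ± 26.5 CPM with auranofin and 65.0 ± 21.5 CPM with Western diet alone for Prdx3 (SD, n = 3 and 5). The fitted log2 fold change was -0.36 (SE 0.38) for Prdx1, -0.52 (SE 0.35) for Prdx2 and -0.71 (SE 0.40) for Prdx4, -0.39 (SE 0.38) for Prdx5 and -0.19 (SE 0.33) for Prdx6. That of Prdx3 was 0.29 (SE 0.29), and the adjusted p ran from 0.671 to 0.86 over the 6 members in edgeR. None had an unadjusted p under 0.05, against 6.5% of all genes, and DESeq2 and limma voom also called 0 of 6 with none under that unadjusted p. The direction rested on the Western diet libraries that stood apart. Without Western diet 2 and 5 all 6 fitted values were positive, at 0.15 for Prdx1, 0.13 for Prdx2, 0.53 for Prdx3, 0.06 for Prdx4, 0.30 for Prdx5 and 0.39 for Prdx6. That fit kept auranofin 2, which stood apart as well. With auranofin 2 left out instead, all 6 were negative, among them -0.60 for Prdx1, -0.74 for Prdx2, -0.01 for Prdx3, -0.79 for Prdx5 and -0.51 for Prdx6. With all libraries and the mitochondrial share of counts as a covariate, all 6 were also negative, at -0.62 for Prdx1, -0.79 for Prdx2, -0.07 for Prdx3, -0.91 for Prdx4, -0.77 for Prdx5 and -0.54 for Prdx6. In that fit 4 of 6, Prdx2, Prdx4, Prdx5 and Prdx6, were lower at an unadjusted p under 0.05, against 12% of genes, and none was called.

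Markers of several cell types were also fitted higher or lower with auranofin, though 0 were called in edgeR. Over all genes, 2.71% were higher and 3.79% lower at an unadjusted p under 0.05. All 8 brown adipocyte markers were fitted higher (median log2 fold change 1.53), 6 of them at an unadjusted p under 0.05, and their summed CPM was 583 to 3119 with auranofin and 155 to 1062 with Western diet alone. Of 9 plasma and B cell markers 7 were fitted higher, 6 at that p. Their summed CPM was 176, 1695 and 218 in auranofin 1 to 3 and 169 to 347 with Western diet alone. Only auranofin 2 lay above the Western diet range, and the median was 218 with auranofin and 231 with Western diet alone. Of 7 endothelial markers 6 were fitted higher, 4 at that p. Their summed CPM was 837 to 2597 with auranofin (median 1057) and 670 to 1128 with Western diet alone, so only 1 auranofin library lay above the Western diet range. All 8 striated muscle markers were fitted lower, 5 at that p, with summed CPM of 13.2 to 56.8 with auranofin and 16.7 to 511 with Western diet alone. Without Western diet 2 and 5 the counts at that p were 2 of 8 for brown adipocytes, 7 of 9 for plasma and B cells, 1 of 7 for endothelium and 5 of 8 for striated muscle, in the same directions. Only levels of members relative to the family were set against the brown adipocyte and the plasma and B cell lists, as described below. The part of these cell types in the peroxiredoxin values themselves was not tested.

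Atorvastatin against Western diet gave the lowest values of the family. All 6 members were fitted lower, with a median log2 fold change of -0.90 against -0.01 over all genes tested, and 50.8% of all genes were fitted lower. No member passed at an adjusted p under 0.05 in edgeR (background 0%), while 4 of 6, Prdx2, Prdx4, Prdx5 and Prdx6, were lower at an unadjusted p under 0.05, against a background of 10.5% of genes. Prdx1 averaged 295 ± 40.3 CPM with atorvastatin and 524 ± 315 CPM with Western diet alone (SD, n = 3 and 5), a log2 fold change of -0.83 (SE 0.39) with an unadjusted p of 0.0514. For Prdx2 the mean was 71.6 ± 14.7 CPM with atorvastatin and 141 ± 70.3 CPM with Western diet alone, and the log2 fold change was -0.98 (SE 0.36). Prdx4 was at -1.02 (SE 0.40), Prdx5 at -0.98 (SE 0.39), Prdx6 at -0.80 (SE 0.34) and Prdx3 at -0.29 (SE 0.29). In edgeR the adjusted p was 0.588 for Prdx3 and 0.34 for each of the other 5. DESeq2 and limma voom called 0 of 6, with 5 of 6 at an unadjusted p under 0.05 in each tool. Of all 18055 genes, 3227 had such a p in DESeq2 (2274 of them lower) and 3706 in limma voom (1965 lower). The count in edgeR rested on single libraries. It was 0 of 6 without atorvastatin 1 (background 1.1% of genes), 0 of 6 without atorvastatin 2 (1.88%), 1 of 6 without Western diet 2 (4.06%) and 0 of 6 without Western diet 2 and 5 (0.811%). The groups did not overlap for 1 member, Prdx5, which was lower in all 3 atorvastatin libraries, against a background of 2.87% of genes.

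These differences were smaller without the Western diet libraries that stood apart. Leaving out Western diet 2 alone gave log2 fold changes of -0.39 for Prdx1, -0.67 for Prdx2, -0.08 for Prdx3, -0.64 for Prdx4, -0.62 for Prdx5 and -0.53 for Prdx6 for atorvastatin against Western diet. Without Western diet 2 and 5 they were -0.36, -0.37, -0.09, -0.29, -0.33 and -0.26 for Prdx1 to Prdx6 in that order. With the trend of each library on transcript length removed, also a choice made after the values were seen, they were -0.69 for Prdx1, -0.57 for Prdx2, 0.11 for Prdx3, -0.33 for Prdx4, -0.42 for Prdx5 and -0.71 for Prdx6. In whole aorta, fewer cells of a type and less RNA per cell cannot be told apart. All 10 macrophage markers were fitted lower with atorvastatin, with 0 called in edgeR and none at an unadjusted p under 0.05. Their summed CPM was 900 to 2791 with atorvastatin and 424 to 5944 with Western diet alone, and no library had a macrophage marker at 0. All 8 striated muscle markers were fitted lower (median -3.40), 6 of them at that p, with summed CPM of 10.97 to 23.8 with atorvastatin and 16.7 to 511 with Western diet alone. All 7 nerve markers were fitted higher (median 3.12), 4 of them at that p (background 4.19% of genes higher). Their summed CPM was 19.9 to 134.5 with atorvastatin (median 20.6) and 15.5 to 25.3 with Western diet alone. Only 1 atorvastatin library thus lay above the Western diet range for nerve. When Western diet 2 and 5 were left out and all atorvastatin libraries kept, the macrophage markers had 0 of 10, striated muscle 7 of 8 lower and nerve 4 of 7 higher at that p. Only levels of members relative to the family were set against the macrophage list, as described below. The part of these cell types in the peroxiredoxin values themselves was not tested.

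**Figure D2:**
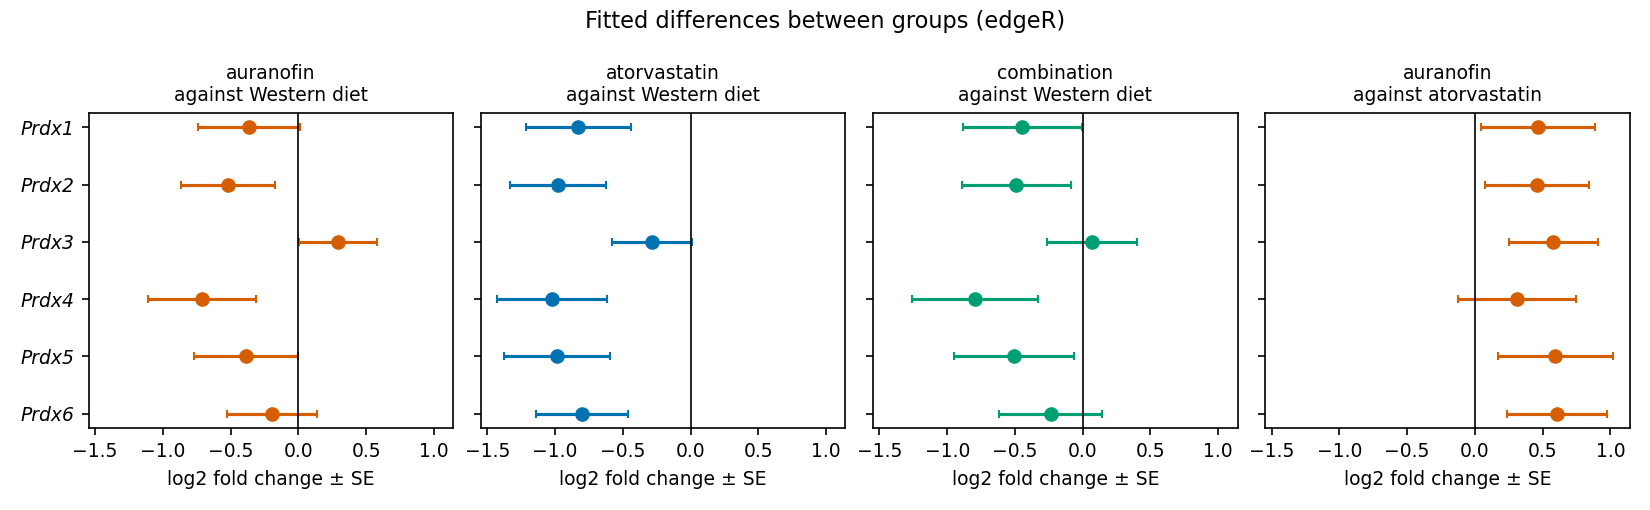
Fitted log2 fold change with its SE (horizontal bars) for the 6 members in 4 comparisons, from edgeR over 13 libraries. Atorvastatin against Western diet has all 6 points below 0, from -0.29 for Prdx3 to -1.02 for Prdx4, and Prdx3 lies to the right of the other 5 in the 3 comparisons with Western diet, which share the same 5 Western diet libraries.

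In the combination group 5 of 6 members were fitted lower than with Western diet alone, against 51% of all genes. The combination against Western diet gave a log2 fold change of -0.45 (SE 0.44) for Prdx1, -0.49 (SE 0.40) for Prdx2, 0.07 (SE 0.33) for Prdx3, -0.79 (SE 0.47) for Prdx4, -0.51 (SE 0.45) for Prdx5 and -0.24 (SE 0.38) for Prdx6. No member was called in edgeR (background 0%), each with an adjusted p of 0.997, and none had an unadjusted p under 0.05 (background 1.47%). DESeq2 and limma voom gave 0 of 6 on both counts. With 2 libraries, Prdx4 rested on their difference, with 66.0 CPM in combination 1 and 35.4 CPM in combination 2: its log2 fold change was -1.32 without combination 1 and -0.41 without combination 2. Without Western diet 2 and 5 the 6 values were 0.03, 0.12, 0.27, -0.06, 0.14 and 0.30 for Prdx1 to Prdx6. The 3 comparisons with Western diet share their control libraries, so their values are not independent of each other.

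Auranofin against atorvastatin does not use the Western diet libraries for its difference. All 6 members were fitted higher with auranofin, while 49.9% of all genes were fitted lower, at log2 fold changes of 0.46 (SE 0.42) for Prdx1, 0.46 (SE 0.38) for Prdx2, 0.58 (SE 0.33) for Prdx3, 0.31 (SE 0.44) for Prdx4, 0.60 (SE 0.43) for Prdx5 and 0.61 (SE 0.37) for Prdx6. None was called (edgeR, adjusted p 0.826 to 0.868, background 0%) and none had an unadjusted p under 0.05 (background 4.4%), also by DESeq2 and limma voom. Prdx1 was the only member whose groups did not overlap in this comparison, with 324 CPM in the lowest auranofin library against 322 CPM in the highest atorvastatin library, and the background was 5.91% of genes. Scaled only to the library total, the Prdx1 groups overlapped. Auranofin 1 to 3 were then at 324, 334 and 417, and atorvastatin 1 to 3 at 296, 372 and 315. Without auranofin 2 the 6 values were 0.23, 0.24, 0.28, 0.19, 0.20 and 0.29 for Prdx1 to Prdx6. Western diet libraries enter through the spread and the scaling that all groups share: without Western diet 2 and 5 the values were 0.50, 0.50, 0.62, 0.34, 0.64 and 0.65, and 3 of 6, Prdx2, Prdx5 and Prdx6, had an unadjusted p under 0.05 (background 6.13% of genes higher). With the mitochondrial share as a covariate all 6 values lay between -0.07 and 0.08.

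Over the whole layout of both drugs, the auranofin term of an additive model was -0.06 (SE 0.30) for Prdx1, -0.11 (SE 0.30) for Prdx2, 0.32 (SE 0.22) for Prdx3, -0.33 (SE 0.33) for Prdx4, -0.04 (SE 0.31) for Prdx5 and 0.11 (SE 0.27) for Prdx6 (log2 scale). The atorvastatin term was -0.53 (SE 0.31) for Prdx1, -0.57 (SE 0.30) for Prdx2, -0.26 (SE 0.22) for Prdx3, -0.64 (SE 0.33) for Prdx4, -0.63 (SE 0.32) for Prdx5 and -0.50 (SE 0.27) for Prdx6. No member was called for either term in edgeR, DESeq2 or limma voom, and in edgeR the adjusted p was 0.998 for auranofin and 0.546 to 0.606 for atorvastatin (background 0% for both). At an unadjusted p under 0.05, 0 of 6 members passed for either term in edgeR, against 2.69% of genes for auranofin and 7.08% for atorvastatin. DESeq2 had 0 of 6 for auranofin and 1 of 6 for atorvastatin under that unadjusted p, and limma voom had 1 of 6 for each. Of 18055 genes, 632 had such a p for auranofin and 1958 for atorvastatin in DESeq2. In limma voom these were 983 and 1451 genes. The atorvastatin term without Western diet 2 and 5 was -0.25, -0.21, -0.17, -0.21, -0.26 and -0.18 for Prdx1 to Prdx6, with 0 of 6 under that p. The auranofin term was then 0.25, 0.29, 0.45, 0.13, 0.38 and 0.47, with 2 of 6, Prdx3 and Prdx6, under that p (background 3.35% of genes higher). With auranofin 2 left out instead, 0 of 6 were under that p in edgeR, and Prdx3 was at 0.16.

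The test of whether the effect of both drugs differed from the sum of each gave log2 values of 0.74 (SE 0.60) for Prdx1, 1.00 (SE 0.55) for Prdx2, 0.06 (SE 0.47) for Prdx3, 0.94 (SE 0.62) for Prdx4, 0.87 (SE 0.61) for Prdx5 and 0.76 (SE 0.52) for Prdx6. In edgeR 0 of 6 were called (background 0%) and 0 of 6 had an unadjusted p under 0.05 (background 3.1%). DESeq2 had 0 of 6 and limma voom 1 of 6 under it, and neither called a member. Of 18055 genes, 691 had such a p in DESeq2 and 1601 in limma voom. Leaving out Western diet 2 and 5 gave 0.24 for Prdx1, 0.36 for Prdx2, -0.18 for Prdx3, 0.17 for Prdx4, 0.17 for Prdx5 and 0.18 for Prdx6. With the mitochondrial share as a covariate they were 1.05, 1.36, 0.43, 1.24, 1.33 and 1.18 for Prdx1 to Prdx6, and 4 of 6, Prdx2, Prdx4, Prdx5 and Prdx6, had an unadjusted p under 0.05 (background 10.8% of genes higher), with none called.

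Across the 13 libraries Prdx2, Prdx5 and Prdx6 varied together most closely, and Prdx3 followed the other members less closely. The Pearson correlation of log2 CPM was 0.977 for Prdx2 with Prdx5, 0.975 for Prdx5 with Prdx6, 0.962 for Prdx2 with Prdx6 and 0.953 for Prdx2 with Prdx4. For Prdx2 with Prdx5 the Spearman rho was 0.929 (permutation p of 2e-05), the permutation p of r was 1e-05, the smallest that 100000 resamples can give, and r was 0.935 without Western diet 2 and 5, the libraries farthest from the median of Prdx2. Of the 15 pairs, 13 had an adjusted permutation p of r under 0.05. The 2 that did not were Prdx2 with Prdx3 (r 0.444, adjusted p 0.135) and Prdx3 with Prdx4 (r 0.275, adjusted p 0.366). Fewer passed on rho. No pair of Prdx3 passed on it (adjusted permutation p 0.185 to 0.906), nor did Prdx1 with Prdx6 (rho 0.538, adjusted permutation p 0.0937). The other pairs passed on rho too. Prdx3 with Prdx1 had an r of 0.615 (permutation p 0.0239) and a rho of 0.374 (permutation p 0.209). For Prdx3 with Prdx5 and with Prdx6, r was 0.58 and 0.623 but 0.0127 and 0.155 without auranofin 2 and Western diet 2, so both relations rest on those libraries. Prdx1 with Prdx4 likewise had an r of 0.784, against 0.343 without Western diet 2 and atorvastatin 1. Prdx4 with Prdx5 and with Prdx6 had r of 0.897 and 0.873, against 0.633 and 0.646 without Western diet 2 and 5. For Prdx1 with Prdx5 r was 0.892, against 0.684 without Western diet 2 and atorvastatin 1.

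The libraries share a length trend that these correlations also hold. The short-minus-long measure of the library correlated with log2 CPM at r = 0.99 for Prdx2, 0.98 for Prdx5, 0.962 for Prdx6, 0.947 for Prdx4 and 0.877 for Prdx1 (adjusted permutation p of 0.000912 or less over 12 relations), and at 0.506 for Prdx3 (adjusted permutation p 0.0991). Spearman rho was 0.89 for Prdx2 (permutation p 0.0001) and 0.154 for Prdx3 (permutation p 0.616), and without Western diet 2 and 5 r was 0.965 for Prdx2 and 0.518 for Prdx3. The mitochondrial share of counts, the other measure set against the members, correlated with Prdx3 at r = 0.81 (adjusted permutation p 0.00106, rho 0.703 with permutation p 0.00931), and r was 0.635 without auranofin 2 and Western diet 1. It also passed for Prdx6 at r = 0.667 (adjusted permutation p 0.0242, rho 0.637 with permutation p 0.0227) and for Prdx5 at r = 0.606 (adjusted permutation p 0.0483, rho 0.374 with permutation p 0.212), with r of 0.663 and 0.656 without those libraries. With the length trend removed the mitochondrial share had r of 0.576 with Prdx3, 0.711 with Prdx6 and 0.673 with Prdx5. All these r use TMM-scaled CPM, and TMM factors were low in auranofin 2 (0.629, mitochondrial share 38.8%) and Western diet 2 (0.639, 26.9%). Scaled only to the library total, Prdx3 was 68.8 and 63.9 in these libraries, below 91.7 in combination 2 (share 19.1%). Western diet 1, with the lowest share (9.36%), was still low at 53.9. The relation on that scale was not tested. With the length trend removed from each library, 8 of 15 pairs of members passed the threshold on r in place of 13. Prdx2 with Prdx6 was then at r = 0.955 and Prdx5 with Prdx6 at 0.948, while all 5 pairs of Prdx3 lay between -0.522 and 0.158 and none passed. Prdx4 with Prdx5 was at 0.553 and did not pass either (adjusted permutation p 0.0835). The removal did not take the short-minus-long measure out of the members: r with it was then 0.981 for Prdx2, 0.946 for Prdx6, 0.913 for Prdx5, 0.851 for Prdx1, 0.76 for Prdx4 and -0.0945 for Prdx3.

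**Figure D3:**
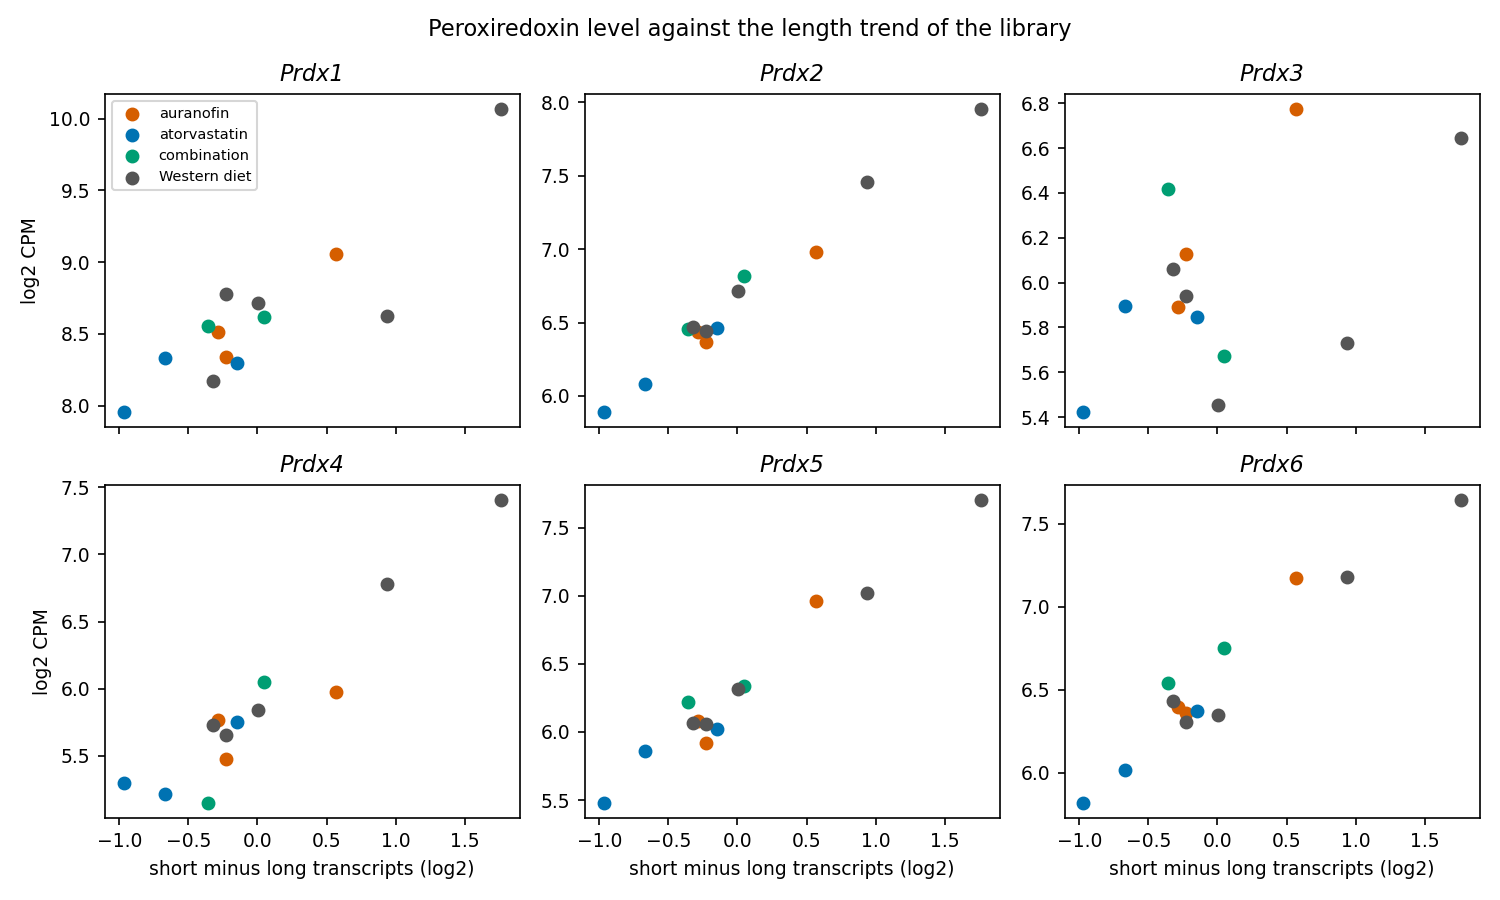
log2 CPM of each member (vertical axes) against the median log2 deviation of short minus long transcripts in the same library (horizontal axes), 13 points, coloured by group. Prdx2 follows the measure at r = 0.99 and Prdx3 at 0.506, and Western diet 2 is the point farthest right at 1.76.

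**Figure D4:**
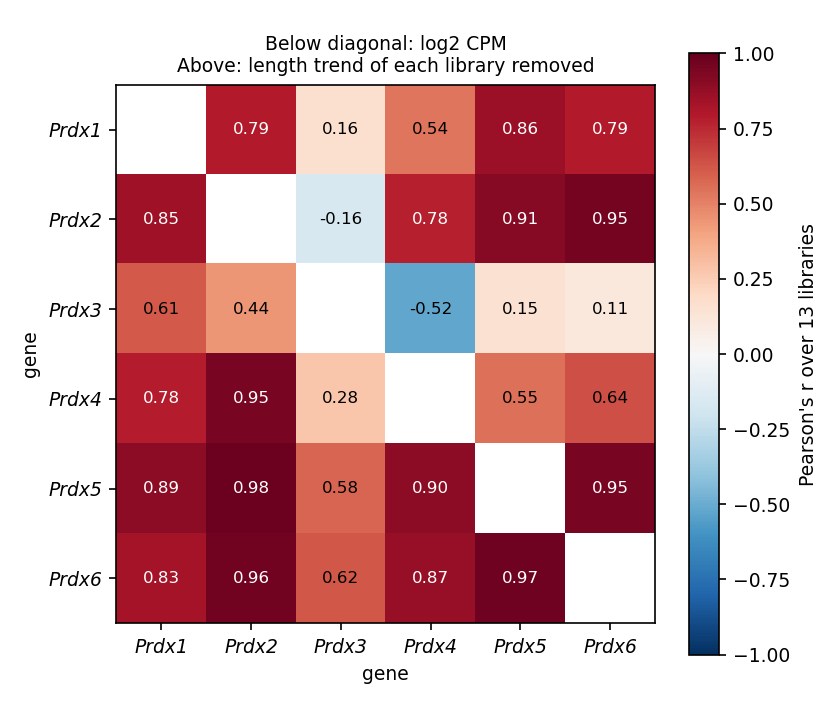
Pearson's r between members over 13 libraries, from log2 CPM below the diagonal and after removing the length trend of each library above it. The row and column of Prdx3 are the palest on both sides, with r of 0.275 to 0.623 below the diagonal and -0.522 to 0.158 above it.

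The genes whose log2 CPM was most like a member's, among 7077 genes averaging a log2 CPM of 4 or more, differed for each member. Chchd3, a protein that shapes the cristae of mitochondria, was the nearest to Prdx3 at r = 0.976, followed by Pmpcb, a subunit of the peptidase that cuts mitochondrial import signals (0.958), and Mtx2, of the outer membrane (0.956). With the length trend removed Chchd3 was still at 0.97 with Prdx3. Prdx1 was nearest to Serpinb6a, a serine protease inhibitor (0.995), Sec11c, of the signal peptidase complex (0.973), and Cstb, an inhibitor of cathepsins (0.971), with 0.923, 0.115 and 0.811 after removal of the trend. Prdx2 was nearest to Atp6v1f, a subunit of the vacuolar proton pump, and Psmb5, a proteasome subunit (0.995 each), Prdx4 to Tmsb4x, which binds actin monomers (0.992), Prdx5 to the copper chaperone Atox1 (0.988) and Prdx6 to Sar1b, a GTPase of secretory vesicles (0.98).

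Each member's log2 CPM was also set against the mean of the other 5 in the same library. Prdx1 lay 1.79 to 2.70 above the mean of the others, lowest in Western diet 5 and Western diet 3 (2.02) and highest in Western diet 4. These relative levels were set against 7 gene lists, 42 relations in all, chosen after the levels were seen. Relative Prdx1 rose with the mean log2 CPM of 6 foamy macrophage markers (Trem2, Spp1, Gpnmb, Cd9, Fabp5 and Lgals3), with r = 0.87 (permutation p 9e-05, adjusted 0.00378) and rho 0.731 (permutation p 0.00668, adjusted 0.0701). Western diet 5 and Western diet 3 held the lowest marker scores, 5.51 and 5.77 against 6.71 to 9.16 in the other libraries, and without them r was 0.647 (permutation p 0.0317). The relation with 10 general macrophage markers was r = 0.81 (permutation p 0.0007, adjusted 0.0147; rho 0.736, permutation p 0.00543, adjusted 0.0701). Without Western diet 3 and 5 it was 0.642 (permutation p 0.0352). Both relations passed in each fit that left out 1 library, with r of 0.795 to 0.909 for foamy macrophages and 0.775 to 0.874 for macrophages, and as deviations from group means they were 0.912 and 0.849. On this relative scale the other 5 members had r between -0.468 and 0.0794 with the foamy macrophage score. By definition the 6 relative levels of a library cancel out, so a rise in 1 member is offset in the others. These r are therefore no separate support.

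Relative Prdx3 went with another list. It ran from -1.69 in Western diet 5 to -0.17 in combination 2, and rose with the mean log2 CPM of 8 brown adipocyte markers, among them Ucp1 and Cidea, at r = 0.796 (permutation p 0.00116, adjusted 0.0162) and rho 0.802 (permutation p 0.00165, adjusted 0.0559). Without auranofin 2 and Western diet 1 r was 0.811 (permutation p 0.00233), and over fits that left out 1 library it was 0.751 to 0.9, past the threshold in all but the fit without combination 2. The 18 nuclear genes of oxidative phosphorylation gave r = 0.313 with relative Prdx3 (permutation p 0.296, adjusted 0.588; rho 0.291, permutation p 0.337). Relative Prdx4 had r = -0.727 with brown adipocyte markers (permutation p 0.00493, adjusted 0.0414; rho -0.775, permutation p 0.00266), which did not pass in 12 of 15 alternatives. Since the relative levels cancel out within a library, it is not independent of relative Prdx3. Relative Prdx1 also had r = 0.75 with 8 genes of oxidative protein folding (permutation p 0.0039, adjusted 0.0409; rho 0.71, permutation p 0.00859), at 0.382 with the length trend removed. The remaining 37 of the 42 relations did not pass on r. On rho none of the 42 passed. The adjusted permutation p of rho was 0.0701 for Prdx1 with each macrophage list and 0.0722 with oxidative folding. It was 0.0559 for Prdx3 and for Prdx4 with brown adipocytes.

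**Figure D5:**
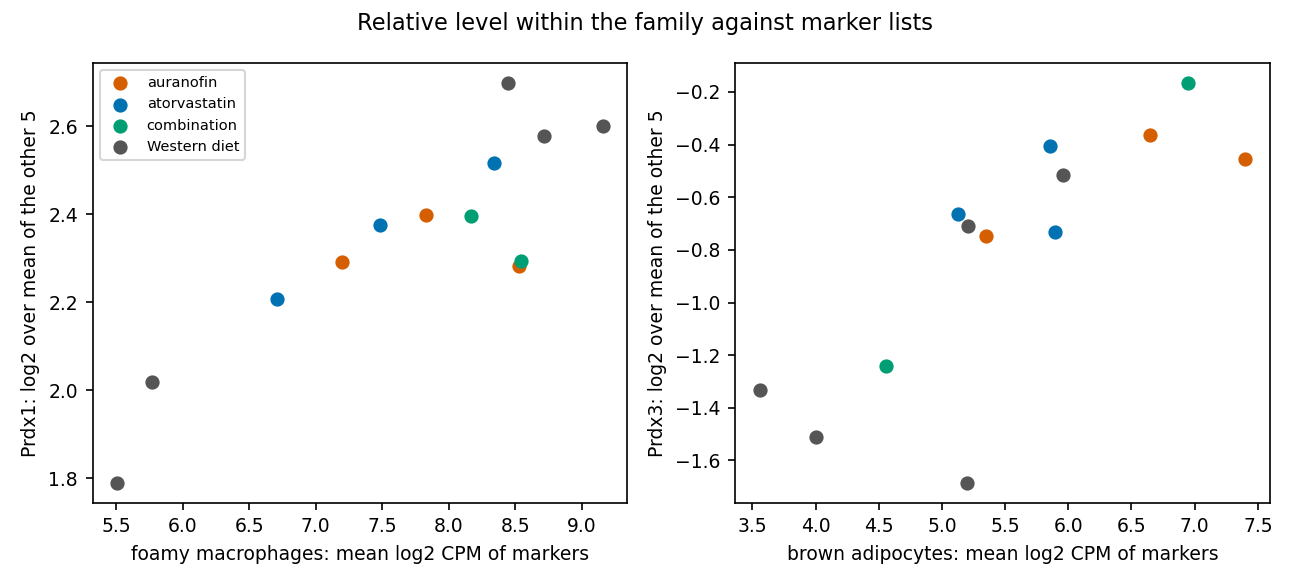
Left, log2 level of Prdx1 over the mean of the other 5 members against the mean log2 CPM of 6 foamy macrophage markers; right, the same for Prdx3 against 8 brown adipocyte markers (13 libraries, coloured by group). Western diet 5 and 3 are the lowest points on the left at 1.79 and 2.02, and r is 0.87 on the left and 0.796 on the right.

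The partners of the peroxiredoxins were counted as lists, and 0 of their genes were called in any comparison by edgeR. Of the 6 genes of thioredoxin recycling, 3 were fitted higher and 3 lower with auranofin (median log2 fold change -0.07), and 2 higher and 4 lower with atorvastatin (-0.15), against medians of -0.04 and -0.01 over all genes. Txn1, the cytosolic thioredoxin that reduces Prdx1 and Prdx2, averaged 80.03 ± 15.2 CPM with atorvastatin and 162 ± 113 CPM with Western diet alone, a log2 fold change of -1.02 (SE 0.43), and Txn2, its mitochondrial counterpart and the partner of Prdx3, was at -0.71 (SE 0.32). These were the 2 genes of the list with an unadjusted p under 0.05 with atorvastatin, against 10.5% of all genes lower at that p. Txn1 was at -0.28 (SE 0.24) and Txn2 at -0.20 (SE 0.23) without Western diet 2 and 5, and neither had such a p, also when only Western diet 2 was left out. Txnrd1, the cytosolic thioredoxin reductase, was at 0.40 (SE 0.23) with atorvastatin, and none of the 6 had an unadjusted p under 0.05 with auranofin. Srxn1, the sulfiredoxin that restores overoxidised peroxiredoxins, averaged 38.4 ± 4.46 CPM with auranofin and 48.2 ± 7.76 CPM with Western diet alone, a log2 fold change of -0.33 (SE 0.17), or -0.20 (SE 0.14) without Western diet 2 and 5.

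Among other enzymes of peroxide removal, 5 of 6 tested genes were fitted lower with atorvastatin (median -0.82), led by Gpx7, a glutathione peroxidase of the endoplasmic reticulum, at -1.14 (SE 0.39), and 4 of 6 with auranofin (median -0.10). Gpx7 was at -0.43 (SE 0.22) with atorvastatin without Western diet 2 and 5, and the median of the list was -0.20 with atorvastatin and 0.51 with auranofin. Catalase, Cat, averaged 130 ± 15.5 CPM with auranofin and 86.7 ± 26.0 CPM with Western diet alone, a log2 fold change of 0.59 (SE 0.29, unadjusted p 0.0669 in edgeR). Its groups did not overlap, by 118.2 CPM in the lowest auranofin library against 117.5 CPM in the highest Western diet library. Over all genes, 1.45% were higher without overlap. Cat was at 0.42 (SE 0.31) without Western diet 2 and 5. The partner of Prdx6 is glutathione S-transferase pi, whose near-identical copies Gstp1 and Gstp2 can share reads. They were at -0.99 (SE 0.41) and -1.02 (SE 0.42) with auranofin and at -1.08 (SE 0.41) and -1.19 (SE 0.42) with atorvastatin, and 6 of 9 genes of the glutathione list were fitted lower in each comparison. When Western diet 2 and 5 were left out Gstp1 and Gstp2 were at -0.19 (SE 0.24) and -0.18 (SE 0.23) with auranofin and at -0.32 (SE 0.24) and -0.39 (SE 0.24) with atorvastatin. In the NRF2 list, Nqo1, a standard target of that factor, was at -0.43 (SE 0.26) with auranofin and -0.65 (SE 0.26) with atorvastatin, and 4 of 7 genes were fitted higher with auranofin and 3 of 7 with atorvastatin. Nqo1 was at -0.00015 with auranofin and -0.25 (SE 0.17) with atorvastatin when Western diet 2 and 5 were left out. Of 18 nuclear oxidative phosphorylation genes, 14 were fitted higher with auranofin (median 0.30) and 7 with atorvastatin (median -0.19), and without Western diet 2 and 5 the counts were 18 with auranofin (median 0.61) and 10 with atorvastatin (median 0.04).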

How the data were processed

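Whole aorta RNA of 13 libraries in 4 groups was profiled, and the authors deposited raw counts per gene, whole numbers without normalization. Per the submitters' processing notes, reads were aligned to GRCm39 by STAR 2.6.1d, and genes were counted by featureCounts (Subread 1.6.3); the annotation release is not given in the sources used here. All 13 count columns were matched to their libraries by name. The counts were used as deposited. Genes were filtered with filterByExpr of edgeR over the 4 groups, scaled with TMM and fitted by quasi-likelihood in edgeR 4.0.16 (R 4.3.3) with 1 mean per group, and tested two-sided over 18055 genes with Benjamini-Hochberg adjustment and a threshold of 0.05. The SE is the size of the log2 fold change divided by the square root of F. Log2 CPM used a prior count of 2. The members and all gene lists were chosen with earlier results of these data known.

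DESeq2 1.42.0, limma 3.58.1 (voom with sample weights), other size factors, no filter or a stricter one, mitochondrial genes left out or as a covariate, a replicate block, the compared groups alone, exact permutation and leaving out each library were run as alternatives. Removing a lowess trend on transcript length, unscaled totals, leaving out Western diet 2 and 5, and all relations of relative levels were added after the data were seen. Transcript lengths came from GENCODE M21 on GRCm38 and were found for 98.2% of tested genes. They were used only as lengths, since the counts were made on GRCm39. Correlations used two-sided permutation tests with 100000 resamples. No 2 libraries had the same counts. The pipeline was tested on simulated data. Named genes were all 6 members, the up to 3 genes with the smallest p per pathway list and comparison, and the 3 genes most like each member among genes averaging a log2 CPM of 4 or more. The text names a part of those. Figures were drawn with matplotlib 3.10.9.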

Additional observations from a re-analysis of the deposited data

Results flagged for a closer look

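Western diet 2 was far from the other 4 Western diet libraries for Prdx1, with 1078 CPM against 288 to 439.5 CPM. Prdx6b, the close copy of Prdx6, had 13 counts in Western diet 5 against 0 to 2 counts in the other Western diet libraries. Of 14 sets of 5 Western diet values looked at, these 2 were flagged as holding a library far from the rest. The threshold flags about 1 in 20 sets of normally distributed values by chance. These sets share the same 5 libraries and include small counts, so that rate may not hold here.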

How the results depend on the processing

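No member was called in any of the 7 tests under any alternative, which were 1098 refitted fold changes in all, and 57 of those changed sign. With limma voom the log2 value was 3.64e-05 for Prdx6 in auranofin against Western diet, 0.049 for Prdx3 in atorvastatin against Western diet, 0.19 for Prdx6 in the combination against Western diet, 0.083, 0.087 and 0.13 for Prdx1, Prdx2 and Prdx5 in the auranofin term, 0.053 for Prdx3 in the atorvastatin term and -0.11 for Prdx3 in the interaction. With the mitochondrial share as a covariate it was -0.067 for Prdx3 in auranofin against Western diet, 0.037 for Prdx6 in the combination against Western diet, -0.068 and -0.0076 for Prdx4 and Prdx5 in auranofin against atorvastatin, -0.019 for Prdx6 in the auranofin term and 0.0054 for Prdx3 in the atorvastatin term. With unscaled totals it was 0.10 for Prdx6 in the combination against Western diet and 0.032 for Prdx3 in the atorvastatin term. With the length trend removed it was 0.11 for Prdx3 in atorvastatin against Western diet, 0.066 for Prdx5 in the auranofin term, and 0.0020 in the atorvastatin term and -0.28 in the interaction for Prdx3. Also with the trend removed, 8 pairs of members passed in place of 13, with r of -0.158 for Prdx2 with Prdx3 and -0.522 for Prdx3 with Prdx4. Without Western diet 2 and 5 the values in auranofin against Western diet were 0.15, 0.13, 0.057, 0.30 and 0.39 for Prdx1, Prdx2, Prdx4, Prdx5 and Prdx6, and in the combination against Western diet 0.026, 0.12, 0.14 and 0.30 for Prdx1, Prdx2, Prdx5 and Prdx6. The auranofin term was then 0.25, 0.29, 0.13 and 0.38 for Prdx1, Prdx2, Prdx4 and Prdx5, and the interaction -0.18 for Prdx3. Leaving out 1 library at a time gave, for auranofin against Western diet, -0.60 to 0.078 for Prdx1, -0.0081 to 0.50 for Prdx3 and -0.51 to 0.077 for Prdx6, and for the combination against Western diet -0.34 to 0.39 for Prdx3 and -0.37 to 0.034 for Prdx6. The auranofin term ran from -0.16 to 0.20 for Prdx1, -0.28 to 0.081 for Prdx2, -0.17 to 0.18 for Prdx5 and -0.010 to 0.28 for Prdx6, the interaction from -0.35 to 0.41 for Prdx3, and r of Prdx3 with Prdx4 from -0.13 to 0.423. The cause of these changes was not tested. The deviations of same-numbered libraries of different groups had r of -0.309 to 0.433 (15 pairs, 5 of them over 0.1). Of 13 libraries, 3 were nearest to their own number. The labels do not say whether the numbers pair libraries, and these r cannot settle it. With the replicate block 0 members were called in each test, and Prdx3 was at -0.0599 in the combination against Western diet. The smallest exact permutation p the groups allow is 0.0179 for 3 against 5 libraries, 0.0476 for 2 against 5 and 0.1 for 3 against 3. With groups of 2 to 5 libraries the SE of a member's log2 fold change was 0.29 to 0.47 between single groups, which limits what could be seen more than the 750 to 17943 counts behind each member's value.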
